A study of Mus musculus and Acomys cahirinus with 25 samples.

Results

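Epidermis of wounds of the African spiny mouse (Acomys cahirinus), a rodent that regrows hair follicles in healed skin, was followed by RNA-seq in 6 of the 25 libraries of the series. The 6 libraries were chosen by tissue and labelled post-wound day (PWD) and split into 2 arms. The active wound arm held the 2 libraries of PWD14 and the 2 libraries of PWD21, and the rest arm held the library of PWD0, which is unwounded dorsal skin, and the library of PWD28. All animals were wild-type, came from a captive colony and received no treatment other than a square full-thickness excision on the back, made in young adults. Both sexes were used, and neither the labels nor the methods give the sex of a library or the age of the animal behind the PWD0 library. The whole wound was harvested, so center and margin were not separated. Trypsin in the cold loosened the epidermis, which was then peeled from the dermis by hand, so the material is an epidermal sheet with whatever follicle epithelium came away with it. The question was which genes were high in the wound and back at rest levels at PWD28, named transient here, and which were low in the wound and present again at PWD28, named lost and regained.

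In intact skin the epidermis is renewed by basal keratinocytes marked by Krt5 and Krt14, which move outward, switch to Krt1 and Krt10, and end as cornified cells sealed by small proline-rich proteins, late cornified envelope proteins and loricrin. Around a wound the keratinocytes change this program. They make the stress keratins Krt6a, Krt6b, Krt16 and Krt17, secrete proteases and alarmins, and migrate as a sheet. Hair follicles hold a separate population of stem cells, marked among others by Lhx2, Lgr5, Lgr6 and Krt15, and build a shaft of hair keratins and keratin-associated proteins when they grow.

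Between 9742823 and 33831242 reads per library fell on genes, the lowest at PWD28. Reads of this species were aligned to the laboratory mouse genome, and between 50.0% and 59.6% of the reads of these libraries were set aside for low alignment quality. Levels are given as CPM, the count of a gene as a share of the library total after scaling with the TMM factors of edgeR, which ran from 0.718 and 0.756 at PWD14 to 1.21 at PWD0 and 1.30 at PWD28. Levels of different genes are not compared, since sequence divergence and read sharing between gene copies differ from gene to gene. Fewer cells of a type and less RNA per cell cannot be told apart in such bulk samples. On the log scale the pairs of PWD14 and PWD21 correlated at 0.962 and 0.987, and PWD0 with PWD28 at 0.927. The 2 libraries of a pair differed by far more than counting noise, with chi-square values of 26.7 and 23.5 per degree of freedom. Nothing in the labels says whether they came from separate animals, so the p-values measure only the spread between these libraries. In the comparison of the arms, this spread includes differences between days within an arm. A gene with unlike levels at PWD14 and PWD21 could therefore miss the threshold there. The label of the tissue held against its markers, with Krt14 at 4129.8 CPM at PWD0, 64606 and 49049 CPM at PWD14, 17936 and 14239 CPM at PWD21 and 3792 CPM at PWD28. Dermal fibroblast markers summed to 945 to 1852 CPM in the active wound and 1519.8 to 1626 CPM at rest. Postn alone averaged 957 CPM over the 6 libraries and had a log2 fold change, wound against rest, of -0.53. Col1a1, Col1a2 and Col3a1, named after their values were seen, had 2.27, 1.64 and 2.61. Of the 13 tested markers 9 had values above 0 and 4 below 0, and none passed the test given below.

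Between the arms, 343 genes were higher and 627 lower in the active wound at an FDR under 0.05, the Benjamini-Hochberg adjusted p of edgeR's quasi-likelihood test over 13413 genes. These 970 genes are 7.23% of the genes tested, 2.56% higher and 4.67% lower. All 343 higher genes had their lowest wound library above both rest libraries and are the transient genes, and 626 of the 627 lower genes had their highest wound library below both rest libraries and are the lost and regained genes. Without regard to the test, the arms did not overlap in 23.1% of all genes in the higher direction and 23.6% in the lower. The exception among the called genes was Fgf18, a growth factor of follicle epithelium, at 26.2 CPM at PWD0, 0.216 and 0.592 CPM at PWD14, 0.195 and 0.156 CPM at PWD21 and 0.552 CPM at PWD28. The size of the change was a median log2 fold change of 1.78 for the transient genes and -2.16 for the lost and regained genes, against -0.051 for all genes. At an unadjusted p under 0.05 edgeR counted 4376 genes, or 32.6%, of which 2162 were higher and 2214 lower. DESeq2, a second test, called 1749 higher and 1317 lower of the same 13413 genes at an FDR under 0.05. The counts of both kinds given below for gene lists are to be read beside these counts over all genes.

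The calls rested on few libraries. Leaving out the second PWD14 library or the first PWD21 library left 0 and 1 genes past the threshold with edgeR, at 3233 and 3819 genes with an unadjusted p under 0.05. In these sets of 5 libraries DESeq2 called 703 higher and 880 lower, and 1494 higher and 923 lower. Without the PWD0 library 6 genes were higher and 160 lower, without the PWD28 library 32 and 152, and without the first PWD14 library 115 and 319. Leaving out the second PWD21 library gave 732 and 645. Scaling by library size alone, which moved the median of all genes down by 0.439 on the log2 scale, gave 177 higher and 1154 lower genes in place of 343 and 627. No gene of this report with an FDR under 0.05 turned its direction in any of these fits.

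Xist, the RNA of the inactive X chromosome, was among the most strongly lost genes, at 57.7 CPM at PWD0, 2.59 and 2.03 CPM at PWD14, 3.95 and 0.261 CPM at PWD21 and 118 CPM at PWD28 (log2 fold change -5.28, SE 0.731, FDR 0.0244). The Y-linked genes Uty and Ddx3y, named after their values were seen, stood at 24.3 CPM at PWD0, 13.8 and 18.3 CPM at PWD14, 59.3 and 80.3 CPM at PWD21 and 0.473 CPM at PWD28 and 30.4 CPM at PWD0, 13.9 and 18.7 CPM at PWD14, 47.9 and 56.7 CPM at PWD21 and 5.76 CPM at PWD28. Wound libraries were thus low in Xist and held Y-linked reads, the PWD28 library was the reverse, and the PWD0 library held both. In this comparison a difference in sex between the animals and a difference between wound and rest cannot be told apart, for these or for any other genes. The PWD28 and PWD0 libraries also differed in Y-linked reads, so sex and day cannot be told apart between them either.

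When each time point had its own mean, 3635 genes were higher (27.1%) and 4017 lower (29.9%) at PWD14 than in the average of PWD0 and PWD28, which is 57% of all genes tested, and 2346 and 2399 at PWD21, or 35.4%. Both contrasts use the same rest libraries, and the lone libraries at PWD0 and PWD28 were assumed to vary like the pairs. Of the 343 transient genes, 286 had a higher mean at PWD14 than at PWD21, as had 48.2% of all genes. Of the 626 lost and regained genes, 441 were lower at PWD14 than at PWD21. The PWD28 library lay within a factor of 2 of the PWD0 library for 294 transient genes (85.7%) and 466 lost and regained genes (74.4%), against 85.4% of all genes. PWD28 was above PWD0 for 237 of the 343 transient genes, as for 49.9% of all genes, and below PWD0 for 414 of the 626 lost and regained genes. As to PWD28, both names require only that it lay outside the range of the wound libraries, not that it matched PWD0. Between PWD28 and PWD0 themselves 444 genes passed the threshold, 3.31% of those tested. Without the first and the second PWD14 library this count was 963 and 1022. The count at PWD21 fell from 4745 to 2789 without PWD0, 2487 without the first PWD21 library and 2370 without the second.

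The median exonic length was 2780 bases for the transient genes, 6100 bases for the lost and regained genes and 4360 bases for all genes tested. Of the 4362 shortest genes, when all were split by length into 3 equal parts, 4.77% were transient and 2.11% lost and regained, while of the 4360 longest the shares were 0.849% and 7.57%. The shortest genes took 56.7% and 54.8% of the CPM at PWD14, 45.5% and 43.3% at PWD21, 35.5% at PWD0 and 38.5% at PWD28. This share thus ordered the libraries as the arms do, and its part in the calls was not tested.

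Of the 4 wound keratins 3 were called higher and 0 lower, with a median log2 fold change of 3.08, and edgeR counted 3 higher and 0 lower at an unadjusted p under 0.05 and DESeq2 called 4 and 0. Genes described below that neither rank among the 12 largest changes of a direction, nor among the most abundant of their list, nor among the largest differences from the dermis, and that the study does not name, were chosen after their values were seen. Krt6a (chr15:101689928-101694305 on GRCm38), which keratinocytes switch on after injury, stood at 15.04 CPM at PWD0, 8025 and 5869.6 CPM at PWD14, 2264 and 1489 CPM at PWD21 and 35.7 CPM at PWD28. Every wound library was above both rest libraries by a wide margin, with a mean of 4412 ± 3073 CPM (SD, n = 4) (log2 fold change 7.44, SE 1.08, FDR 0.0244). Its partner Krt16 stood at 573 CPM at PWD0, 13137 and 8584 CPM at PWD14, 3297 and 2450 CPM at PWD21 and 453 CPM at PWD28. The arms did not overlap (log2 fold change 3.74, SE 0.861, FDR 0.0451), and PWD28 had come back below PWD0. Krt6b had 85.7 CPM at PWD0, 152 and 161 CPM at PWD14, 209.9 and 175 CPM at PWD21 and 45.9 CPM at PWD28. This smaller rise was also free of overlap (log2 fold change 1.41, SE 0.322, FDR 0.0451). Krt17, the fourth keratin of the group, reached 5478 CPM at PWD0, 54503 and 29847 CPM at PWD14, 9249 and 4832 CPM at PWD21 and 3698 CPM at PWD28. Its second PWD21 library lay below PWD0, the arms overlapped, and it did not pass the test (log2 fold change 2.42, FDR 0.1696), with a log2 fold change of 3.23 at PWD14 (FDR 2.57e-05) and 0.65 at PWD21 (FDR 0.147). Krt6a and Krt6b are near-identical copies whose reads may have been shared out unevenly, so the split between them is uncertain. Gm5414, a predicted gene at chr15:101624028-101628252 in the same keratin cluster, stood at 2.105 CPM at PWD0, 779 and 566 CPM at PWD14, 235 and 161 CPM at PWD21 and 3.31 CPM at PWD28 (log2 fold change 7.32, SE 0.921, FDR 0.0221).

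Among the 10 keratins of basal and suprabasal cells 1 was called higher and 1 lower. The higher gene was Krt78, a keratin of the upper layers, at 92.8 CPM at PWD0, 188 and 184 CPM at PWD14, 182 and 188 CPM at PWD21 and 42.4 CPM at PWD28 (log2 fold change 1.46, SE 0.339, FDR 0.0461). The lower gene was Krt15, a keratin of resting basal cells and the follicle bulge, at 2494 CPM at PWD0, 386 and 349 CPM at PWD14, 342 and 315 CPM at PWD21 and 679 CPM at PWD28 (log2 fold change -2.19, SE 0.451, FDR 0.0371). PWD28 was above every wound library and below PWD0 (log2 fold change -1.88, FDR 7.78e-04). Krt14, Krt5 and Krt10 were higher in every wound library than at rest without passing the test, with log2 fold changes of 3.202 (FDR 0.0754), 1.07 (FDR 0.177) and 1.07 (FDR 0.274). For Krt1 the value was 0.86 (FDR 0.159), for Krt2 -0.38 (FDR 0.669) and for Krt79 -0.33 (FDR 0.485). Krt77 and Krt80 had -1.49 (FDR 0.216) and -1.88 (FDR 0.105).

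**Figure D1:**
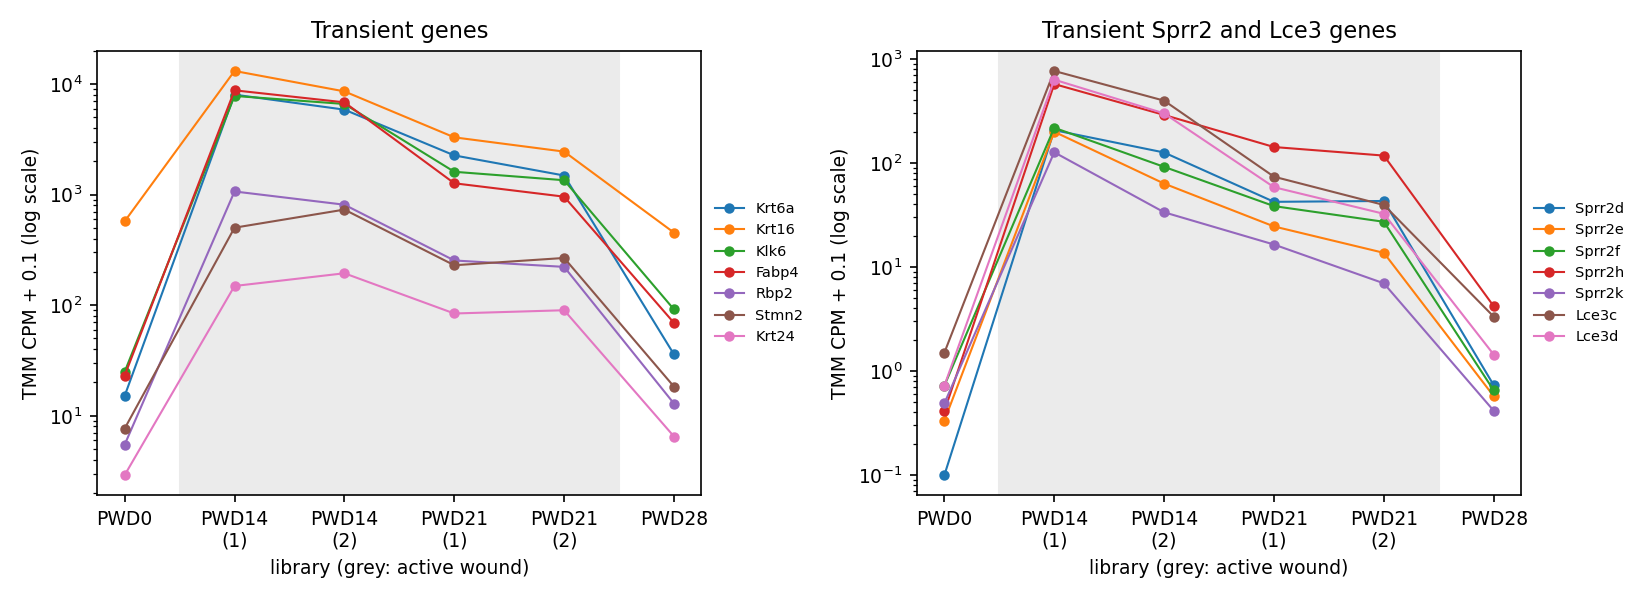
TMM CPM plus 0.1 on a log scale of 14 transient genes in each of the 6 epidermis libraries, with the active wound libraries on grey. In all 14 genes the 4 wound libraries lie above both rest libraries, and for Krt6a the span runs from 15.0 CPM at PWD0 to 8025 CPM in the first PWD14 library.

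Small proline-rich proteins, which are cross-linked into the cornified envelope, had the highest median of the 24 response lists. Of 13 tested members 8 were called higher and 0 lower, all 8 of the Sprr2 branch, and the median log2 fold change was 6.99 over the 13 members that passed the filter on low counts, for which high wound values alone could suffice. Sprr2h stood at 0.312 CPM at PWD0, 575 and 290.1 CPM at PWD14, 143 and 118 CPM at PWD21 and 4.104 CPM at PWD28 (log2 fold change 6.99, SE 1.21, FDR 0.0286). Sprr2d had 0 CPM at PWD0, 207 and 126 CPM at PWD14, 42.3 and 43.1 CPM at PWD21 and 0.631 CPM at PWD28 (log2 fold change 8.34, SE 1.29, FDR 0.0244). In both genes the PWD14 libraries were the highest and PWD0 the lowest. Sprr2f reached 0.624 CPM at PWD0, 218 and 91.9 CPM at PWD14, 38.5 and 27.2 CPM at PWD21 and 0.552 CPM at PWD28 (log2 fold change 7.298, SE 1.22, FDR 0.0268). Sprr2e reached 0.234 CPM at PWD0, 199.9 and 63.4 CPM at PWD14, 24.5 and 13.6 CPM at PWD21 and 0.473 CPM at PWD28 (log2 fold change 7.701, SE 1.55, FDR 0.0353). In each of them the first PWD14 library was well above the second. Sprr2g held 0 and 1 counts at rest and 1149 counts over the wound libraries, a pooled ratio of 384 with a 95% counting interval from 68.8 to 15200. Sprr2b, Sprr2k and the pseudogene Sprr2j-ps had log2 fold changes of 6.86 (FDR 0.0388), 6.98 (FDR 0.0425) and 7.82 (FDR 0.0332). The Sprr1 branch was more variable. Sprr1b stood at 39.4 CPM at PWD0, 2385 and 1624 CPM at PWD14, 561 and 352 CPM at PWD21 and 122 CPM at PWD28 (log2 fold change 3.93, FDR 0.0538), with no overlap between the arms. Sprr1a, at 294 CPM at PWD0, 2625 and 2621 CPM at PWD14, 719 and 396 CPM at PWD21 and 811 CPM at PWD28, overlapped because PWD28 was above both PWD21 libraries (log2 fold change 1.53, FDR 0.256). Sprr2a3 held 0 counts in both rest libraries and 104 counts over the wound libraries, at least 9.89-fold higher against a floor of 3 counts per rest library, without passing the test (FDR 0.179). With this gene at its bound the median of the list was 6.98. In contrast, Sprr2a1 and Sprr2a2 held no reads in any of the 6 libraries. The Sprr2 genes are close copies, so how the reads were shared among them is uncertain.

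The 9 tested Sprr2 genes lie on chromosome 3 between 92285304 and 92433927 on GRCm38. Their promoters are shown because the genes moved together. The sequences are of the laboratory mouse genome (RefSeq, GRCm38.p6), not of the spiny mouse, and cover the 250 bases before the start of each gene on the plus strand, for Sprr2d chr3:92338890-92339139, for Sprr2e chr3:92351893-92352142, for Sprr2f chr3:92364937-92365186 and for Sprr2h chr3:92385435-92385684. Capitals mark matches, on either strand, to the AP-1 motif TGANTCA, the octamer ATTTGCAT and the TATA motif TATAAA.
Sprr2d: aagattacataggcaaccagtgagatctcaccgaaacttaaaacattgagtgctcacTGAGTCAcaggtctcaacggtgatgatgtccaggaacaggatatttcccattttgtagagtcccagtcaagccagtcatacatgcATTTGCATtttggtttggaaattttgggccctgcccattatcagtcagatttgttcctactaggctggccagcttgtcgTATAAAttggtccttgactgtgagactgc
Sprr2e: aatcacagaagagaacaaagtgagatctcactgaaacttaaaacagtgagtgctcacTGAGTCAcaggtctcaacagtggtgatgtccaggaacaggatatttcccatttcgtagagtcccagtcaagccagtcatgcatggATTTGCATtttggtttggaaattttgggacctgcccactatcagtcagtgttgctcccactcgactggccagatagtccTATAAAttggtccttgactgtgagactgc
Sprr2f: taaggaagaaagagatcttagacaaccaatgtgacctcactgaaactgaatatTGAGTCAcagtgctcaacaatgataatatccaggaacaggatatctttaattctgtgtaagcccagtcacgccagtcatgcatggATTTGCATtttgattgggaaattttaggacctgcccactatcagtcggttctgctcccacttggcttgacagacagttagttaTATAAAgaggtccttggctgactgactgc
Sprr2h: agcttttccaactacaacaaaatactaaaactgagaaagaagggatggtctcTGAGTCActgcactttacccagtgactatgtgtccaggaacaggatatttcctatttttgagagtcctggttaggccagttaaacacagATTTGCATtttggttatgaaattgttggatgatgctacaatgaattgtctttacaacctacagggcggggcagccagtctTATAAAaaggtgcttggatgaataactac

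In Sprr2d and Sprr2e the AP-1 match began 193 bases before the start, the octamer 108 and the TATA motif 29, and in Sprr2f and Sprr2h the TATA motif was at the same 29 bases. All 6 transient Sprr2 genes with a promoter sequence held all 3 motifs, as did 6 of the 7 tested Sprr2 genes with one. Over all 27025 promoters 13 (0.0481%) held all 3, these 6 included. The genes are close copies, so the 6 are not separate observations. Over all 261 transient genes with a promoter 6.51% held the AP-1 motif, 3.83% the octamer and 13.8% the TATA motif. These shares include the Sprr2 genes, which were 6 of the 17 genes with the AP-1 motif. They were also 6 of the 10 with the octamer and 6 of the 36 with the TATA motif. Among the 478 lost and regained genes with a promoter the shares were 2.09%, 1.46% and 6.28%, and among the 10178 tested genes 4.78%, 1.43% and 7.27%. The motifs were chosen after these promoters were seen, and a match is a run of letters, not a site shown to be bound.

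Of 39 terminal differentiation and cornified envelope genes, 5 were called higher and 1 lower, with a median log2 fold change of 1.24. Lce3d and Lce3c, late cornified envelope genes known to come on after barrier injury, led the list. Lce3d stood at 0.624 CPM at PWD0, 634 and 300.2 CPM at PWD14, 58.5 and 32.4 CPM at PWD21 and 1.34 CPM at PWD28 (log2 fold change 8.02, SE 1.67, FDR 0.0376). Lce3c stood at 1.403 CPM at PWD0, 768 and 398 CPM at PWD14, 73.9 and 39.5 CPM at PWD21 and 3.24 CPM at PWD28 (log2 fold change 7.103, SE 1.57, FDR 0.0421). Both had the same order of libraries as Sprr2h and were near 0 at rest. The other 3 were Lce6a (log2 fold change 3.65, FDR 0.0257), the calmodulin-like Calml3 (log2 fold change 2.16, FDR 0.0368), and Klk5, a kallikrein protease of the stratum corneum (log2 fold change 1.43, FDR 0.0405). The lower gene was Lce1m, at 1966 CPM at PWD0, 461 and 591 CPM at PWD14, 515 and 503 CPM at PWD21 and 1316 CPM at PWD28 (log2 fold change -1.67, SE 0.274, FDR 0.0262). Cnfn, which encodes cornifelin, had 661 CPM at PWD0, 12984 and 8938 CPM at PWD14, 3099 and 2761 CPM at PWD21 and 789 CPM at PWD28 without passing the test (log2 fold change 3.26, FDR 0.0546). The remaining members with the highest levels also did not pass, Asprv1 at 1.303 (FDR 0.0878), Sbsn at 1.64 (FDR 0.154), Lce1k at 1.17 (FDR 0.163), Ppl at -0.14 (FDR 0.791) and Lor, the loricrin gene, at -0.47 (FDR 0.691).

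Some transient genes encode proteases or their inhibitors. They were chosen here after their values were seen, except for Wfdc12, and no list of such genes was tested. Klk6, a kallikrein protease, stood at 24.9 CPM at PWD0, 7809 and 6607 CPM at PWD14, 1609 and 1349.9 CPM at PWD21 and 91.4 CPM at PWD28 (log2 fold change 6.22, SE 1.199, FDR 0.0333). Klk13 stood at 9.35 CPM at PWD0, 967 and 584 CPM at PWD14, 224 and 171 CPM at PWD21 and 16.7 CPM at PWD28 (log2 fold change 5.22, SE 0.911, FDR 0.0286). On the inhibitor side, Wfdc12 had 0.312 CPM at PWD0, 78.6 and 73.7 CPM at PWD14, 15.95 and 13.8 CPM at PWD21 and 1.03 CPM at PWD28 (log2 fold change 6.07, SE 1.16, FDR 0.0333). Spink7, an inhibitor of serine proteases, had 0.3897 CPM at PWD0, 22.8 and 33.6 CPM at PWD14, 13.01 and 12.2 CPM at PWD21 and 0.789 CPM at PWD28 (log2 fold change 5.09, SE 0.705, FDR 0.0244). The cysteine protease inhibitor Csta1, of the stefin A family, had 58.4 CPM at PWD0, 4456 and 3839.6 CPM at PWD14, 938 and 681 CPM at PWD21 and 137 CPM at PWD28 (log2 fold change 4.66, SE 1.04, FDR 0.0425). In all 5 genes PWD14 was above PWD21 and PWD21 above rest. Of the 5 tested genes in the stretch that spans the stefin A genes, between 36119946 and 36455392 on chromosome 16, 4 were called higher. Of the 7 tested genes in the stretch that spans the Serpinb6 copies, between 32956811 and 34002794 on chromosome 13, 4 were higher. These were Serpinb6a, Serpinb6b, Serpinb6c and Serpinb6e, with log2 fold changes of 3.02 (FDR 0.0288), 3.04 (FDR 0.0244), 3.24 (FDR 0.0288) and 2.93 (FDR 0.0217).

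Several strong transient genes belong to none of these families. Fabp4, a fatty acid-binding protein best known from adipocytes, stood at 22.99 CPM at PWD0, 8779.9 and 6833 CPM at PWD14, 1267 and 958 CPM at PWD21 and 69.1 CPM at PWD28 (log2 fold change 6.598, SE 1.36, FDR 0.0372). Other adipocyte markers were not called, and Plin4 had 10.4 CPM at PWD0, 0.648 and 0 CPM at PWD14, 1.195 and 1.46 CPM at PWD21 and 1.18 CPM at PWD28 and Cidec 8.11 CPM at PWD0, 1.08 and 0 CPM at PWD14, 2.61 and 2.92 CPM at PWD21 and 2.29 CPM at PWD28. Its epidermal relative Fabp5 had 9.74 CPM at PWD0, 172 and 166 CPM at PWD14, 53.1 and 50.9 CPM at PWD21 and 10.02 CPM at PWD28 (log2 fold change 3.48, SE 0.678, FDR 0.0339), and how reads were divided between such related genes is uncertain. Rbp2, a cellular retinol-binding protein, had 5.38 CPM at PWD0, 1068 and 811 CPM at PWD14, 254 and 222 CPM at PWD21 and 12.8 CPM at PWD28 (log2 fold change 6.02, SE 0.969, FDR 0.0257). Stmn2, a stathmin known from growing neurites, had 7.56 CPM at PWD0, 502 and 732 CPM at PWD14, 229.7 and 267 CPM at PWD21 and 18.2 CPM at PWD28 (log2 fold change 5.07, SE 0.7198, FDR 0.0244). In contrast to the Sprr2 genes, its second PWD14 library was the highest. Slc1a6, a glutamate transporter, had 0.546 CPM at PWD0, 36.1 and 51.5 CPM at PWD14, 25.5 and 21.1 CPM at PWD21 and 0.158 CPM at PWD28 (log2 fold change 6.54, SE 0.693, FDR 0.0217). Krt24, a type I keratin that the follicle stem cell list contains, had 2.81 CPM at PWD0, 149 and 194 CPM at PWD14, 84.1 and 89.96 CPM at PWD21 and 6.39 CPM at PWD28 (log2 fold change 4.81, SE 0.585, FDR 0.0221), while the other genes of that list with an FDR under 0.05 were lower.

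Antimicrobial and alarmin genes gave 1 call among 11 tested, Wfdc12. S100a9, a subunit of calprotectin, went from 0.312 CPM at PWD0 to 3487 and 2001 CPM at PWD14, 382 and 164 CPM at PWD21 and 10.7 CPM at PWD28. Its arms did not overlap, yet it missed the threshold (log2 fold change 8.09, SE 1.99, FDR 0.0526). Lcn2, an iron-binding defense protein, had 0 CPM at PWD0, 14.5 and 13.2 CPM at PWD14, 6.34 and 4.48 CPM at PWD21 and 2.13 CPM at PWD28 (log2 fold change 3.15, FDR 0.0904). Slpi and Ptgs2 had 2.24 (FDR 0.167) and 1.65 (FDR 0.08803), and Lyz2, the lysozyme of myeloid cells, 0.303 (FDR 0.684). Among 27 cytokines and chemokines 2 were higher and 1 lower. Il33, an alarmin of barrier epithelia, had 15.4 CPM at PWD0, 38.2 and 45.2 CPM at PWD14, 55.7 and 60.5 CPM at PWD21 and 18.7 CPM at PWD28 (log2 fold change 1.55, SE 0.298, FDR 0.0333). Il1f6, the gene of interleukin 36 alpha, held 2 counts over both rest libraries and 14.9 and 8.37 CPM at PWD14 and 4.39 and 5.11 CPM at PWD21, a pooled ratio of 82.4 with a 95% counting interval from 22.7 to 683 (FDR 0.0244). The lower gene was Ccl27a, a chemokine of resting keratinocytes, at 19.02 CPM at PWD0, 2.81 and 1.77 CPM at PWD14, 0.945 and 0.782 CPM at PWD21 and 4.26 CPM at PWD28 (log2 fold change -2.997, SE 0.693, FDR 0.0458). Il1b was highest at PWD28, with 19.8 CPM at PWD0, 65.8 and 67.5 CPM at PWD14, 42.3 and 48.4 CPM at PWD21 and 179.9 CPM at PWD28 (log2 fold change -0.84, FDR 0.421). Il18, Ccl20, Cxcl14 and Il1f9 had log2 fold changes of 0.36 (FDR 0.434), -0.16 (FDR 0.823), -0.67 (FDR 0.297) and 2.02 (FDR 0.0893). The list median moved from 0.49 to -0.0032 when library size alone was used.

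In the 34 genes of keratinocyte migration and matrix remodeling 2 were higher and 2 lower. Mmp9, the gelatinase that wound keratinocytes secrete, had 4.83 CPM at PWD0, 106 and 79.1 CPM at PWD14, 57.01 and 22.2 CPM at PWD21 and 6.16 CPM at PWD28 (log2 fold change 3.58, SE 0.663, FDR 0.0312). Fscn1, an actin-bundling protein of cell protrusions, had 3.35 CPM at PWD0, 46.6 and 26.1 CPM at PWD14, 19.2 and 8.76 CPM at PWD21 and 3.24 CPM at PWD28 (log2 fold change 2.92, SE 0.697, FDR 0.0491). For both genes PWD28 was close to PWD0. Timp3, an inhibitor of metalloproteinases bound to matrix, had 170 CPM at PWD0, 15.98 and 11.7 CPM at PWD14, 12.95 and 8.08 CPM at PWD21 and 47.7 CPM at PWD28 (log2 fold change -3.17, SE 0.482, FDR 0.0244). Itga2, a collagen-binding integrin subunit, had 12.9 CPM at PWD0, 2.27 and 0.676 CPM at PWD14, 1.17 and 2.08 CPM at PWD21 and 8.13 CPM at PWD28 (log2 fold change -2.79, SE 0.491, FDR 0.0288). The most abundant members did not pass, Cd44 at 0.75 (FDR 0.0835), Itgb1 at 0.55 (FDR 0.164), Itgb4 at -0.87 (FDR 0.148), Lama3 at -0.59 (FDR 0.165), Flna at -0.37 (FDR 0.391) and Myh9 at -0.13 (FDR 0.813).

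Receptors of the EGF family were among the genes lower in the wound. Of 22 genes of EGF and activin signaling 0 were called higher and 4 lower, and edgeR counted 1 higher and 7 lower at an unadjusted p under 0.05 and DESeq2 called 1 and 5. Egfr had 55.3 CPM at PWD0, 19.003 and 13.1 CPM at PWD14, 13.6 and 14.8 CPM at PWD21 and 37.01 CPM at PWD28 (log2 fold change -1.61, SE 0.284, FDR 0.0288). Erbb2 had 287 CPM at PWD0, 128 and 105 CPM at PWD14, 135 and 136 CPM at PWD21 and 219.8 CPM at PWD28 (log2 fold change -1.01, SE 0.2302, FDR 0.0444), and Erbb3 had 60.6 CPM at PWD0, 10.8 and 7.86 CPM at PWD14, 16.2 and 20.6 CPM at PWD21 and 49.01 CPM at PWD28 (log2 fold change -1.97, SE 0.384, FDR 0.0339). In these 3 receptor genes all wound libraries were below both rest libraries. The fourth was Inhbb, an activin subunit (log2 fold change -1.71, FDR 0.0473). Ligands gave other values. Hbegf had 18.8 CPM at PWD0, 126 and 99.3 CPM at PWD14, 45.3 and 23.1 CPM at PWD21 and 11.8 CPM at PWD28 (log2 fold change 2.25, FDR 0.0815). Areg had 20.3 CPM at PWD0, 236 and 206 CPM at PWD14, 39.4 and 20.6 CPM at PWD21 and 41.4 CPM at PWD28 (log2 fold change 2.02, FDR 0.206). Both peaked at PWD14, where each differed from rest, with a log2 fold change of 2.91 at PWD14 (FDR 2.03e-05) and 1.21 at PWD21 (FDR 0.0105) for Hbegf and a log2 fold change of 2.93 at PWD14 (FDR 1.03e-05) and 0.064 at PWD21 (FDR 0.875) for Areg. Ereg, Myc, Stat3 and Tgfb1 had 0.701 (FDR 0.4599), -0.69 (FDR 0.203), -0.59 (FDR 0.237) and -0.18 (FDR 0.855).

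Among 9 genes of epithelial-mesenchymal transition 1 was called higher, Vim, the intermediate filament of mesenchymal cells, at 96.97 CPM at PWD0, 204 and 198 CPM at PWD14, 175 and 155 CPM at PWD21 and 70.2 CPM at PWD28 (log2 fold change 1.13, SE 0.258, FDR 0.0443). Twist1, the transcription factor the study examined in the wound epidermis, had 0.3897 CPM at PWD0, 1.62 and 2.704 CPM at PWD14, 0.917 and 0.521 CPM at PWD21 and 0.237 CPM at PWD28. Twist2 had 0.0779 CPM at PWD0, 1.84 and 1.099 CPM at PWD14, 0.778 and 0.469 CPM at PWD21 and 0.237 CPM at PWD28. All wound libraries exceeded both rest libraries for these 2 genes, but neither passed the test (log2 fold changes 2.07 (FDR 0.157) and 2.55 (FDR 0.102)). At PWD14 the contrast with rest was past the threshold for both, with a log2 fold change of 2.84 at PWD14 (FDR 0.0105) and 1.32 at PWD21 (FDR 0.2603) for Twist1 and a log2 fold change of 3.31 at PWD14 (FDR 0.0173) and 2.22 at PWD21 (FDR 0.131) for Twist2. Snai1, Snai2, Zeb1 and Zeb2 overlapped between the arms, with -0.27 (FDR 0.784), -0.34 (FDR 0.479), -0.59 (FDR 0.433) and 0.57 (FDR 0.595). The cadherins Cdh1 and Cdh3 had -0.74 (FDR 0.105) and 0.38 (FDR 0.426).

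Of 26 tested glycolysis and hypoxia genes 7 were called higher and 0 lower, with a median of 0.88, and edgeR counted 12 higher and 0 lower at an unadjusted p under 0.05 and DESeq2 called 12 and 0. Ldha, lactate dehydrogenase, had 93.9 CPM at PWD0, 306 and 323 CPM at PWD14, 301 and 288 CPM at PWD21 and 95.5 CPM at PWD28 (log2 fold change 1.68, SE 0.226, FDR 0.0244). Tpi1, a glycolytic isomerase, had 80.1 CPM at PWD0, 457 and 450.1 CPM at PWD14, 239 and 200.2 CPM at PWD21 and 69.8 CPM at PWD28 (log2 fold change 2.17, SE 0.435, FDR 0.0356). The lactate exporter Slc16a3 had 5.61 CPM at PWD0, 62.5 and 48.5 CPM at PWD14, 26.4 and 13.9 CPM at PWD21 and 5.37 CPM at PWD28 (log2 fold change 2.78, SE 0.646, FDR 0.04603). Each of these 3 genes was within a factor of 2 of PWD0 again at PWD28. The other 4 were Pkm, Pfkl, Bnip3 and Car9, with log2 fold changes of 1.18 (FDR 0.0401), 1.59 (FDR 0.0414), 1.92 (FDR 0.0244) and 3.72 (FDR 0.0257). Slc2a1, the glucose transporter, and Aldoa, both abundant, had 1.25 (FDR 0.0569) and 1.37 (FDR 0.0732), Hif1a 0.73 (FDR 0.105), Ndrg1 0.13 (FDR 0.793) and Gpi1 1.16 (FDR 0.0577). Gapdh and Pgk1 had at most 1.58 CPM in any library.

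Of 77 tested ribosomal protein genes 0 were called in either direction, and edgeR counted 5 higher and 0 lower at an unadjusted p under 0.05 and DESeq2 called 5 and 0. In the time-point model 59 were higher and 1 lower at PWD14 and 3 and 3 at PWD21, beside 27.1% and 17.5% of all genes called higher there. Their sum was 20396 CPM at PWD0, 71558 and 66984 CPM at PWD14, 26171 and 22202 CPM at PWD21 and 25707 CPM at PWD28. Of 92 oxidative phosphorylation genes 1 was called, Ndufa4l2, which was higher (log2 fold change 1.89, FDR 0.03105), while 77 were higher at PWD14 and 30 at PWD21. Atp5b and Cox5a had 1.09 (FDR 0.112) and 1.62 (FDR 0.0862). Barrier ceramide genes had 2 higher members of 23, Cers3 and Smpd1, which encode a ceramide synthase and a sphingomyelinase (1.42 (FDR 0.0259) and 1.64 (FDR 0.0257)), and cholesterol synthesis had 1 of 20, Ebp (1.26 (FDR 0.0484)).

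**Figure D2:**
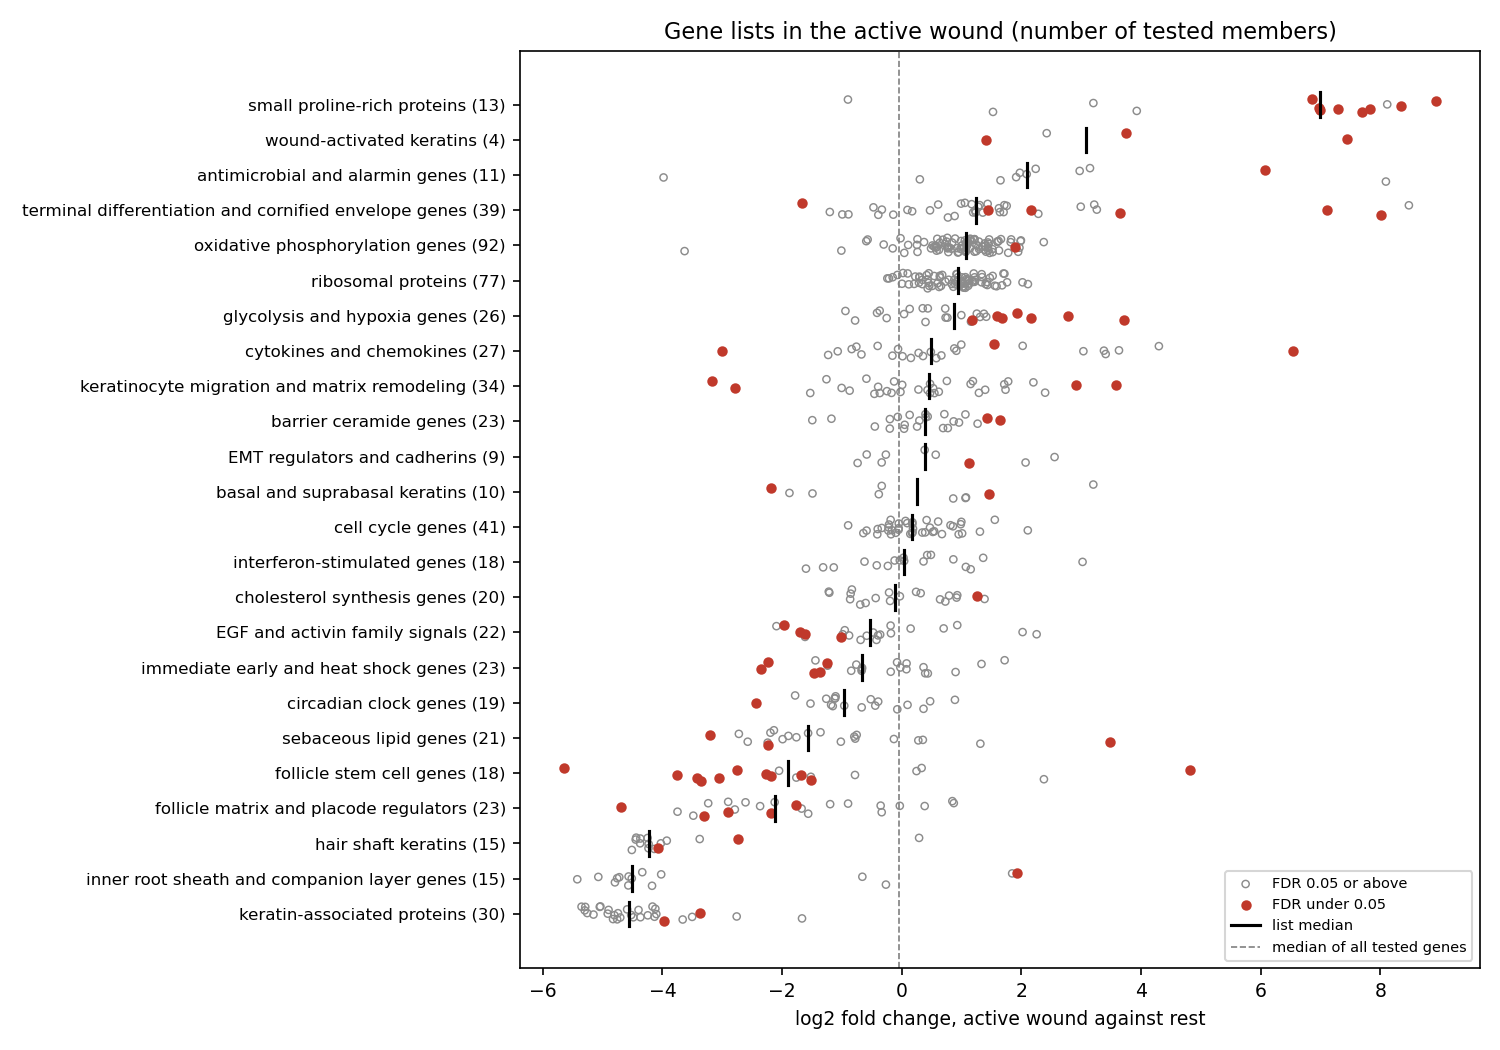
Log2 fold changes, active wound against rest, of all tested members of 24 gene lists, each point a gene, filled where the FDR was under 0.05, with the list median as a bar. Small proline-rich proteins lie highest with a median of 6.99, and the lists of hair shaft keratins, inner root sheath genes and keratin-associated proteins lie lowest, mostly with open points.

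The lost and regained genes were led by Cryab, a small heat shock protein, at 114 CPM at PWD0, 0.216 and 0.592 CPM at PWD14, 2.28 and 1.98 CPM at PWD21 and 14.8 CPM at PWD28 (log2 fold change -5.49, SE 0.884, FDR 0.0257). PWD28 had regained only part of the PWD0 level (log2 fold change -2.94, FDR 2.55e-04 for PWD28 against PWD0). Its relative Hspb8 had 377 CPM at PWD0, 5.72 and 7.01 CPM at PWD14, 22.5 and 14.8 CPM at PWD21 and 92.6 CPM at PWD28 (log2 fold change -4.21, SE 0.671, FDR 0.0257). Ache, acetylcholinesterase, had 67.3 CPM at PWD0, 2.05 and 1.099 CPM at PWD14, 3.14 and 3.13 CPM at PWD21 and 16.3 CPM at PWD28 (log2 fold change -4.097, SE 0.601, FDR 0.0244). In these 3 genes PWD28 lay between PWD0 and the wound. Cspg4, the NG2 proteoglycan, had 39.4 CPM at PWD0, 1.51 and 2.704 CPM at PWD14, 2.53 and 2.03 CPM at PWD21 and 16.3 CPM at PWD28 (log2 fold change -3.64, SE 0.4299, FDR 0.0221). Acacb, acetyl-CoA carboxylase 2, had 64.8 CPM at PWD0, 4.53 and 0.845 CPM at PWD14, 4.197 and 5.47 CPM at PWD21 and 16.3 CPM at PWD28 (log2 fold change -3.41, SE 0.686, FDR 0.0356). Alox12e, an epidermal lipoxygenase, had 70.2 CPM at PWD0, 0.432 and 0.761 CPM at PWD14, 2.696 and 2.45 CPM at PWD21 and 2.999 CPM at PWD28 (log2 fold change -4.39, SE 1.05, FDR 0.0491), and Fcgbp had 93.5 CPM at PWD0, 2.92 and 2.28 CPM at PWD14, 5.45 and 6.62 CPM at PWD21 and 7.102 CPM at PWD28 (log2 fold change -3.505, SE 0.84003, FDR 0.0495). For Alox12e and Fcgbp the highest wound value was close to PWD28, so they were lost with little regained. The opposite shape, with PWD28 far above PWD0, was seen in Bambi, a pseudoreceptor that blocks BMP and activin signals, at 10.3 CPM at PWD0, 2.59 and 2.79 CPM at PWD14, 5.48 and 4.38 CPM at PWD21 and 98.2 CPM at PWD28 (log2 fold change -3.79, SE 0.745, FDR 0.0346). Cntfr, the receptor of ciliary neurotrophic factor, had 4.83 CPM at PWD0, 1.51 and 0.676 CPM at PWD14, 3.697 and 1.62 CPM at PWD21 and 61.2 CPM at PWD28 (log2 fold change -4.03, SE 0.907, FDR 0.0431). D730001G18Rik likewise had 2.105 CPM at PWD0, 0.108 and 0.169 CPM at PWD14, 1.92 and 0.625 CPM at PWD21 and 62.97 CPM at PWD28 (log2 fold change -5.204, SE 1.201, FDR 0.0456).

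Thbs3, a thrombospondin, was close to its PWD0 level at PWD28, with 27.3 CPM at PWD0, 1.94 and 2.197 CPM at PWD14, 3.09 and 3.18 CPM at PWD21 and 25.96 CPM at PWD28 (log2 fold change -3.32, SE 0.321, FDR 0.0217). Irs1, the adaptor of the insulin receptor, had 48.2 CPM at PWD0, 1.404 and 2.79 CPM at PWD14, 2.92 and 4.899 CPM at PWD21 and 12.9 CPM at PWD28 (log2 fold change -3.31, SE 0.587, FDR 0.0288). Cdon, a coreceptor of hedgehog signaling, had 57.6 CPM at PWD0, 5.51 and 2.79 CPM at PWD14, 5.25 and 4.27 CPM at PWD21 and 26.3 CPM at PWD28 (log2 fold change -3.23, SE 0.405, FDR 0.0221). Each had all wound libraries far below both rest libraries. Fgfr1 and Lama5, a growth factor receptor and a laminin chain of the basement membrane, named after their values were seen, had -2.67 (FDR 0.0217) and -2.69 (FDR 0.0217).

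**Figure D3:**
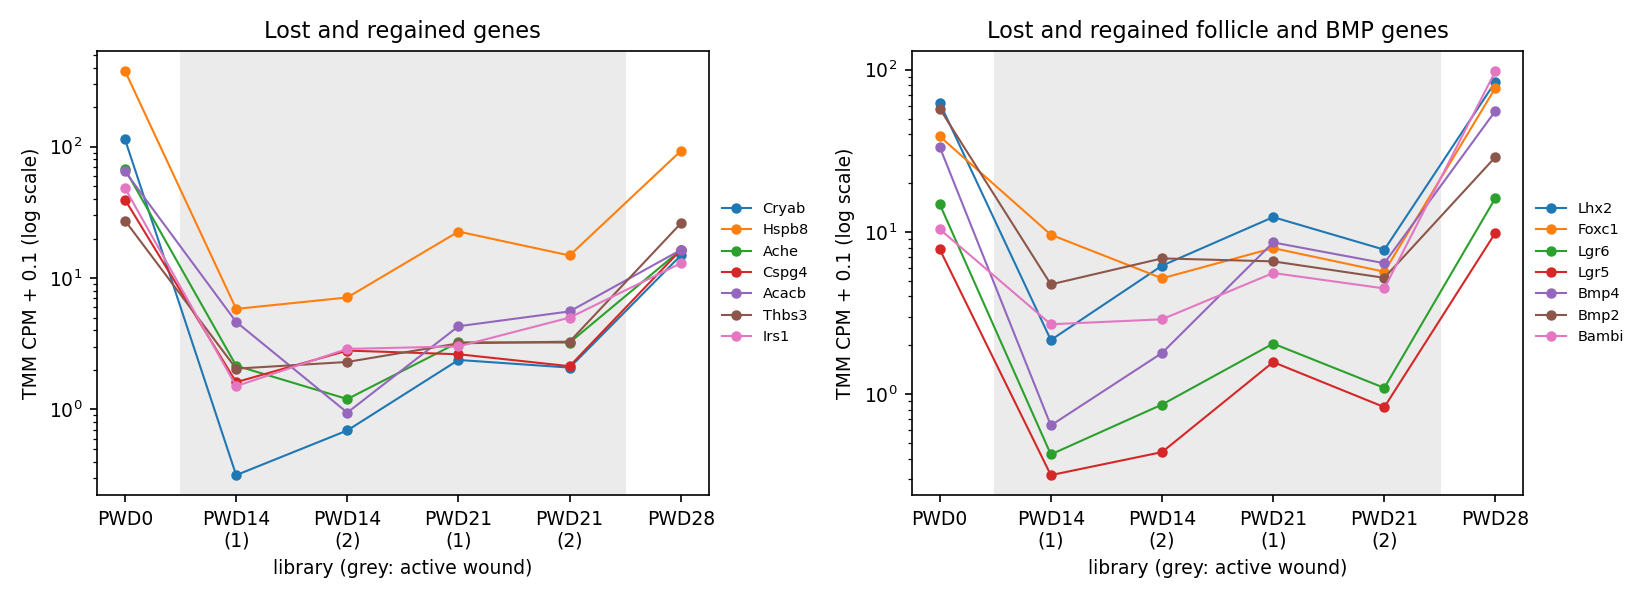
TMM CPM plus 0.1 on a log scale of 14 lost and regained genes in each of the 6 epidermis libraries, with the active wound libraries on grey. All wound libraries lie below both rest libraries. Hspb8 regains part of its level at PWD28 (377 CPM at PWD0, 92.6 CPM at PWD28), whereas Bambi ends above its start (10.3 and 98.2 CPM).

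Of the 24 response lists, that of follicle stem cells had the largest share of tested members called lower. Of 18 tested members 10 were called lower and 1 higher, with a median of -1.91. Lhx2, a homeobox factor of the follicle bulge and bud, had 62.4 CPM at PWD0, 2.05 and 6.08 CPM at PWD14, 12.2 and 7.66 CPM at PWD21 and 84.3 CPM at PWD28 (log2 fold change -3.35, SE 0.537, FDR 0.0257). Lgr6, a receptor of R-spondin in the upper follicle, had 14.7 CPM at PWD0, 0.324 and 0.761 CPM at PWD14, 1.95 and 0.9903 CPM at PWD21 and 16.1 CPM at PWD28 (log2 fold change -3.76, SE 0.515, FDR 0.0244). Lgr5, its counterpart in the lower bulge, had 7.72 CPM at PWD0, 0.216 and 0.338 CPM at PWD14, 1.47 and 0.7297 CPM at PWD21 and 9.79 CPM at PWD28 (log2 fold change -3.42, SE 0.576, FDR 0.0274). All 3 had returned to the PWD0 level or above at PWD28. Foxc1, a factor of stem cell quiescence, had 38.7 CPM at PWD0, 9.501 and 5.07 CPM at PWD14, 7.84 and 5.58 CPM at PWD21 and 77.3 CPM at PWD28 (log2 fold change -3.06, SE 0.378, FDR 0.0221). Nfatc1, also tied to quiescence, had 39.1 CPM at PWD0, 7.02 and 3.803 CPM at PWD14, 7.48 and 8.08 CPM at PWD21 and 25.02 CPM at PWD28 (log2 fold change -2.27, SE 0.367, FDR 0.0257). Tbx1, Gas1 and Dkk3 had -2.75 (FDR 0.0363), -1.69 (FDR 0.0346) and -1.52 (FDR 0.0451), and the other two were Krt15 and Fgf18, given above. Sox9, a factor of the outer root sheath, had 109 CPM at PWD0, 94.9 and 92.4 CPM at PWD14, 39.2 and 28.9 CPM at PWD21 and 109.7 CPM at PWD28 (log2 fold change -0.78, FDR 0.296). Its lower values were at PWD21, with a log2 fold change of -0.23 at PWD14 (FDR 0.328) and -1.68 at PWD21 (FDR 1.72e-04). Runx1 and Plet1 were highest at PWD14, with 30.4 CPM at PWD0, 97.5 and 74.5 CPM at PWD14, 30.8 and 23.04 CPM at PWD21 and 64.4 CPM at PWD28 for Runx1 (log2 fold change 0.25, FDR 0.807) and 8.496 CPM at PWD0, 135 and 190.1 CPM at PWD14, 38.3 and 24.2 CPM at PWD21 and 28.7 CPM at PWD28 for Plet1 (log2 fold change 2.38, FDR 0.135).

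Among 23 regulators of the follicle matrix and placode, the epithelial thickening from which a follicle forms, 5 were called lower and 0 higher, and edgeR counted 0 higher and 15 lower at an unadjusted p under 0.05 and DESeq2 called 0 and 14. Bmp4 had 33.4 CPM at PWD0, 0.5399 and 1.69 CPM at PWD14, 8.51 and 6.31 CPM at PWD21 and 55.7 CPM at PWD28 (log2 fold change -3.301, SE 0.7699, FDR 0.0464). Bmp2 had 57.5 CPM at PWD0, 4.64 and 6.76 CPM at PWD14, 6.48 and 5.11 CPM at PWD21 and 28.9 CPM at PWD28 (log2 fold change -2.903, SE 0.347, FDR 0.0221). Both ligands, which hold follicles at rest and drive hair differentiation, were lower in all wound libraries, Bmp4 most at PWD14. Msx1, a homeobox target of BMP signals, had 0.935 CPM at PWD0, 0 and 0 CPM at PWD14, 0.111 and 0.208 CPM at PWD21 and 4.73 CPM at PWD28 (log2 fold change -4.69, FDR 0.0244). Dlx3, which directs hair shaft differentiation, had 29.1 CPM at PWD0, 16.7 and 8.704 CPM at PWD14, 16.8 and 14.2 CPM at PWD21 and 99.4 CPM at PWD28 (log2 fold change -2.18, SE 0.477, FDR 0.04105), and Cux1 had 154 CPM at PWD0, 74.5 and 56.4 CPM at PWD14, 57.3 and 55.98 CPM at PWD21 and 259.7 CPM at PWD28 (log2 fold change -1.76, SE 0.2701, FDR 0.0244). Dlx3 and Cux1 were above PWD0 at PWD28. Ovol1, Wnt10a, Sox21 and Elf5 had -0.35 (FDR 0.419), -0.34 (FDR 0.387), -0.033 (FDR 0.944) and 0.85 (FDR 0.264).

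Hair keratins did not follow the pattern of lost and regained genes. Their summed level was 121 CPM at PWD0, 44.1 and 44.1 CPM at PWD14, 236 and 242 CPM at PWD21 and 4045 CPM at PWD28, so that PWD0 lay below both PWD21 libraries and the rest arm was high through PWD28 alone. Of 15 tested hair shaft keratins 0 were higher and 2 lower in the comparison of the arms, Krt39 and Krt40, and edgeR counted 0 higher and 12 lower at an unadjusted p under 0.05 and DESeq2 called 0 and 2. Krt40 had 67.2 CPM at PWD0, 6.59 and 4.99 CPM at PWD14, 15.8 and 17.6 CPM at PWD21 and 85.3 CPM at PWD28 (log2 fold change -2.74, SE 0.496, FDR 0.0297). Krt87 had 2.88 CPM at PWD0, 0.648 and 0.761 CPM at PWD14, 34.3 and 38.7 CPM at PWD21 and 709 CPM at PWD28. Its PWD28 value was above PWD0 with a log2 fold change of 7.94 (FDR 3.25e-07). Krt33a, Krt81, Krt83 and Krt86 had log2 fold changes between PWD28 and PWD0 of 7.95, 9.46, 8.23 and 9.13. Krt35 rose less, by a log2 fold change of 4.09, from 27.7 to 473 CPM. In all, 13 of the 15 were higher at PWD28 than at PWD0 at an FDR under 0.05, beside 1.99% of all genes. Against the average of PWD0 and PWD28, 13 of the 15 were lower and 1 higher at PWD14 at that threshold, beside 29.9% and 27.1% of all genes. At PWD21, 4 were lower, beside 17.9% of all genes. In this list the average was itself raised by PWD28, so these counts are not separate from the rise at PWD28.

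Keratin-associated proteins, the matrix of the hair shaft, and inner root sheath genes, which mold the growing hair, were also highest at PWD28. The 54 keratin-associated proteins found summed to 22.7 CPM at PWD0, 10.4 and 13.5 CPM at PWD14, 125 and 88.4 CPM at PWD21 and 3047 CPM at PWD28. Of the 30 tested, 28 were higher at PWD28 than at PWD0 at an FDR under 0.05, beside 1.99% of all genes. These 30 had passed the filter on low counts, for which high values at PWD21 and PWD28 alone could suffice. Krtap7-1 had 0.0779 CPM at PWD0, 0.216 and 0.169 CPM at PWD14, 14.2 and 11.7 CPM at PWD21 and 371 CPM at PWD28. Krtap8-1 had 0.156 CPM at PWD0, 1.62 and 1.35 CPM at PWD14, 20.5 and 15.7 CPM at PWD21 and 454 CPM at PWD28, and Krtap16-1 had 0.156 CPM at PWD0, 0.108 and 0 CPM at PWD14, 4.64 and 4.33 CPM at PWD21 and 193 CPM at PWD28. These 3 genes were under 2 CPM at PWD0 and PWD14, came up at PWD21 and were highest at PWD28. Krtap15, Krtap3-1 and Krtap11-1 had 264, 172 and 324 CPM at PWD28 against 0.312, 2.105 and 5.46 CPM at PWD0. The members called lower in the wound were Krtap16-3 (log2 fold change -3.98, FDR 0.0435) and Krtap19-1 (log2 fold change -3.36, FDR 0.0269). Of 15 inner root sheath and companion layer genes 12 were higher at PWD28 than at PWD0 at an FDR under 0.05, beside the same 1.99% of all genes. Krt71 had 19.7 CPM at PWD0, 7.02 and 14.2 CPM at PWD14, 309 and 137 CPM at PWD21 and 6325 CPM at PWD28. Krt25 had 20.4 CPM at PWD0, 23.1 and 34.3 CPM at PWD14, 364 and 159.8 CPM at PWD21 and 4709 CPM at PWD28, and Krt27 had 8.81 CPM at PWD0, 9.93 and 13.2 CPM at PWD14, 207 and 93.4 CPM at PWD21 and 3273 CPM at PWD28. Between the 2 PWD21 libraries these 3 genes differed by about a factor of 2. Dsc1 and Gata3, which the list shares with other epidermal layers, had -0.26 (FDR 0.841) and -0.66 (FDR 0.131). Krt75, a companion layer keratin, stood apart from the list as a transient gene, at 748 CPM at PWD0, 2731 and 2737 CPM at PWD14, 2193 and 1809 CPM at PWD21 and 492 CPM at PWD28 (log2 fold change 1.93, SE 0.3797, FDR 0.0346).

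**Figure D4:**
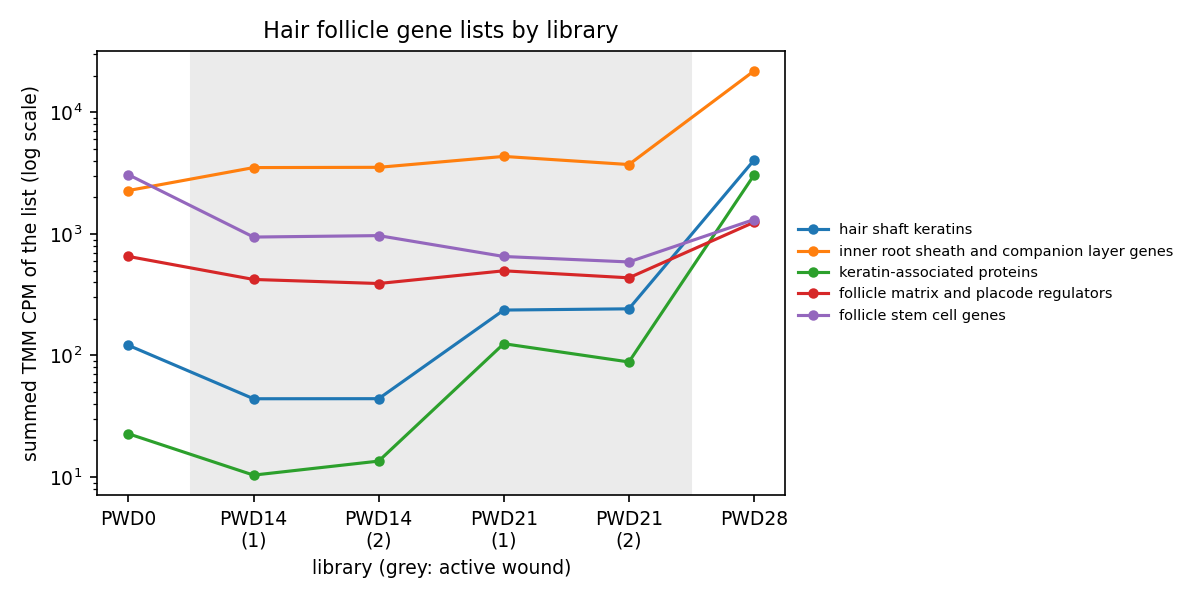
Summed TMM CPM, on a log scale, of 5 hair follicle gene lists in each of the 6 epidermis libraries, with the active wound libraries on grey. Hair shaft keratins go from 121 CPM at PWD0 to 44.1 CPM at PWD14 and 4045 CPM at PWD28, while the stem cell list sums to 3072 CPM at PWD0, of which Krt15 is 2494 CPM, and 1314 CPM at PWD28, of which Krt15 is 679 CPM.

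Of 21 sebaceous lipid genes 2 were called lower and 1, Fabp5, higher, with a median log2 fold change of -1.57. Fasn, fatty acid synthase, had 1293 CPM at PWD0, 239 and 110.4 CPM at PWD14, 184 and 179 CPM at PWD21 and 377 CPM at PWD28 (log2 fold change -2.23, SE 0.4803, FDR 0.03996). PWD28 had not come back to PWD0 (log2 fold change -1.78, FDR 0.0363). Ppargc1a, a coactivator of oxidative metabolism, had 6.39 CPM at PWD0, 0.648 and 0.0845 CPM at PWD14, 0.917 and 1.15 CPM at PWD21 and 7.81 CPM at PWD28 (log2 fold change -3.21, FDR 0.0288). Fa2h and Elovl3, enzymes of sebum lipids, had 524 CPM at PWD0, 101 and 22.5 CPM at PWD14, 87.1 and 84.1 CPM at PWD21 and 125 CPM at PWD28 for Fa2h (log2 fold change -2.14, FDR 0.0786) and 522 CPM at PWD0, 124 and 24.8 CPM at PWD14, 159 and 147 CPM at PWD21 and 249 CPM at PWD28 for Elovl3 (log2 fold change -1.76, FDR 0.107). Their arms did not overlap, and the second PWD14 library was the lowest in both. Dgat2 and Plin2 had 0.28 (FDR 0.698) and 0.35 (FDR 0.576).

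Stress genes of the heat shock and immediate early type were in part lower. Of 23 tested members 5 were lower and 0 higher, and edgeR counted 2 higher and 9 lower at an unadjusted p under 0.05 and DESeq2 called 2 and 7. Hspa1b, an inducible HSP70, had 797 CPM at PWD0, 66.4 and 79.5 CPM at PWD14, 228 and 162 CPM at PWD21 and 569 CPM at PWD28 (log2 fold change -2.35, SE 0.488, FDR 0.0376). Hsph1 had 216 CPM at PWD0, 28.4 and 25.01 CPM at PWD14, 56.2 and 55.6 CPM at PWD21 and 175 CPM at PWD28 (log2 fold change -2.24, SE 0.375, FDR 0.0269), and Jun had 2341 CPM at PWD0, 574 and 728 CPM at PWD14, 969 and 778 CPM at PWD21 and 1606 CPM at PWD28 (log2 fold change -1.37, SE 0.316, FDR 0.0451). Egr1 and Fosb had -1.24 (FDR 0.0404) and -1.47 (FDR 0.0371). All 5 were lower in every wound library. Fos, Junb and Dusp1 overlapped between the arms with 0.36 (FDR 0.532), 0.078 (FDR 0.883) and -0.023 (FDR 0.964), and Klf4, Klf6 and Dnajb1 had -0.67 (FDR 0.165), 1.72 (FDR 0.177) and 0.39 (FDR 0.476).

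Cell cycle genes gave no call among 41 tested with edgeR, and edgeR counted 5 higher and 1 lower at an unadjusted p under 0.05 and DESeq2 called 3 and 0. The list summed to 1184 to 1449 CPM in the active wound and 916 to 1300.3 CPM at rest. Ccnb2, the gene of cyclin B2, had 28.996 CPM at PWD0, 104 and 79.5 CPM at PWD14, 59.4 and 61.2 CPM at PWD21 and 55.004 CPM at PWD28 (log2 fold change 0.86, FDR 0.154), with PWD0 the lowest library. Mcm6, Cdkn1a, Rrm1, Tpx2 and Kif23 had 0.67 (FDR 0.1698), 0.42 (FDR 0.255), -0.051 (FDR 0.908), -0.052 (FDR 0.901) and -0.16 (FDR 0.718). Interferon-stimulated genes had 0 calls of 18, and edgeR counted 1 higher and 0 lower at an unadjusted p under 0.05 and DESeq2 called 0 and 0. Their sum was 229.9 CPM at PWD0, 163 and 141 CPM at PWD14, 405 and 352 CPM at PWD21 and 302 CPM at PWD28, lowest at PWD14 and highest at PWD21. Mx2, Irf9, Irf7, Ifih1 and Ddx58 had -0.033 (FDR 0.964), 0.36 (FDR 0.505), 0.49 (FDR 0.513), -0.23 (FDR 0.863) and -0.42 (FDR 0.774). For the 19 circadian clock genes tested, the median log2 fold change was -0.96. The medians of the lists of cell cycle genes, interferon-stimulated genes, barrier ceramide genes, migration genes, cytokines, epithelial-mesenchymal regulators and basal and suprabasal keratins were below 0 under scaling by library size alone.

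Macrophage markers summed to 81.7 to 110.2 CPM in the active wound and 52.6 to 71.01 CPM at rest, with 1 of 12 called higher, C1qc, at 0.0779 CPM at PWD0, 6.91 and 4.82 CPM at PWD14, 1.33 and 1.56 CPM at PWD21 and 0 CPM at PWD28. Cd68 and Csf1r had 2.300 (FDR 0.0809) and 0.32 (FDR 0.736). T cell markers summed to 47.5 to 91.9 CPM in the active wound and 24.7 to 36.9 CPM at rest and Langerhans and antigen-presenting cell markers to 1181 to 2008 CPM in the active wound and 754 to 1022 CPM at rest, with 0 calls in 10 and 8 genes, and edgeR counted 6 and 4 of them higher at an unadjusted p under 0.05, DESeq2 6 and 4. Cd207, the defining marker of Langerhans cells, had 74.7 CPM at PWD0, 134 and 155 CPM at PWD14, 135 and 136 CPM at PWD21 and 159 CPM at PWD28. Schwann cell markers summed to 24.8 to 40.3 CPM in the active wound and 86.02 to 119 CPM at rest, with Pmp22 and Erbb3 called lower of 7, though Erbb3 is also made by keratinocytes. Melanocyte markers summed to 19.7 to 39.8 CPM in the active wound and 41.0001 to 86.8 CPM at rest, with Mitf lower (log2 fold change -2.45, FDR 0.0244). Endothelial markers summed to 9.59 to 16.01 CPM in the active wound and 10.1 to 10.6 CPM at rest, red blood cell markers to 0.834 to 66.6 CPM in the active wound and 0.552 to 3.04 CPM at rest and neutrophil markers to 3.34 to 6.05 CPM in the active wound and 5.21 to 7.02 CPM at rest. None of the 13 tested fibroblast markers was called, edgeR counted 2 higher at an unadjusted p under 0.05 and DESeq2 2, and Col3a1 had 15.7 CPM at PWD0, 169 and 124 CPM at PWD14, 91.8 and 13.5 CPM at PWD21 and 16.97 CPM at PWD28. The first PWD21 library was thus above the second in this dermal collagen. Skeletal muscle markers summed to 38.98 to 49.7 CPM in the active wound and 72.4 to 113 CPM at rest, with Acta1 lower (log2 fold change -1.29, FDR 0.0425). The part of these cells in the results was not tested.

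The same contrast was made in spiny mouse dermis, with 2 unwounded libraries, 1 of PWD14, 2 of PWD21 and 1 of PWD28. It differed from the epidermis for 725 of 15288 genes (4.74%), 404 (2.64%) with the epidermal change the higher and 321 (2.1%) with it the lower. The test took all 12 libraries as independent, since the labels do not say which epidermis and dermis came from the same wound. Without the epidermal PWD0 library 92 genes differed, without PWD28 203, without the second PWD14 library 395 and without the first PWD21 library 475. Without the dermal libraries of PWD0 in turn 375 and 292 genes differed, of PWD21 363 and 389, and of PWD28 1918. Fabp4 had the largest difference of those named by rule, 8.56 (SE 1.41, FDR 0.00822), and stood at 839 and 683 CPM at PWD0, 129 CPM at PWD14, 217 and 109.9 CPM at PWD21 and 245 CPM at PWD28 in dermis. Krt24 and Krt6a differed by 8.17 (FDR 0.0191) and 7.36 (FDR 0.0157), and Slc1a6 and Stmn2 by 7.25 (FDR 0.0195) and 7.16 (FDR 0.00919). These 5 genes and Cdon no longer passed without the epidermal PWD0 library, nor did Krt24, Krt6a and Slc1a6 without PWD28, Slc1a6 without the first dermal PWD0 library and Cdon without the second. On the other side Tnc, tenascin C, a matrix protein of wound dermis, differed by -5.96 (SE 0.944, FDR 0.00663), being at 99.8 CPM at PWD0, 47.5 and 38.03 CPM at PWD14, 93.9 and 85.5 CPM at PWD21 and 57.7 CPM at PWD28 in epidermis and at 39.9 and 19.2 CPM at PWD0, 5411 CPM at PWD14, 1858 and 1431 CPM at PWD21 and 104 CPM at PWD28 in dermis. Ptn, the growth factor pleiotrophin, differed by -4.81 (FDR 0.00719). Their log2 fold changes in dermis were 5.73 and 4.200. Cdon, Irs1 and Thbs3, which are lost and regained genes in epidermis, differed by -4.46 (FDR 0.0171), -4.43 (FDR 0.00607) and -4.196 (FDR 0.004204). In dermis alone their log2 fold changes of 1.25 (FDR 0.248), 1.13 (FDR 0.163) and 0.89 (FDR 0.180) did not pass. Lgr5 differed by -4.81 (FDR 0.0156), with 15.8 and 7.99 CPM at PWD0, 8.35 CPM at PWD14, 54.7 and 41.5 CPM at PWD21 and 16.6 CPM at PWD28 in dermis. All 4 wound keratins differed. Of the 13 tested small proline-rich proteins 0 differed at an FDR under 0.05, with Sprr2d at 2.69 (FDR 0.9502). The dermis libraries held epidermal keratins, Krt5 at 3267 and 1672 CPM at PWD0, 343 CPM at PWD14, 189 and 326 CPM at PWD21 and 894 CPM at PWD28 and Krt75 at 1469 and 905 CPM at PWD0, 75.3 CPM at PWD14, 34.5 and 49.6 CPM at PWD21 and 185 CPM at PWD28, with log2 fold changes of -2.77 and -4.01 in dermis.

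**Figure D5:**
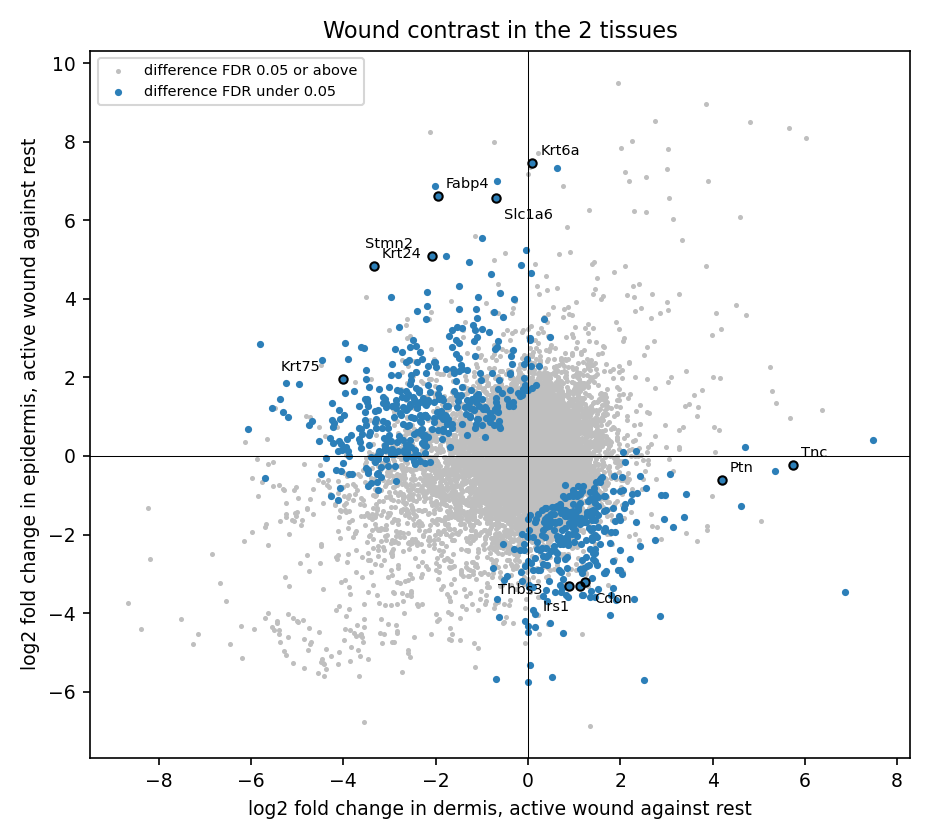
Log2 fold change, active wound against rest, of each tested gene in dermis (horizontal) and in epidermis (vertical), both from the fit of all 12 spiny mouse libraries, with the genes of a different change at an FDR under 0.05 in blue. Fabp4 and Krt24 lie high on the left, Krt75 lower and further left, and Tnc and Ptn far to the right near 0 on the vertical axis.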

How the data were processed

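RNA was sequenced from epidermis peeled off whole wounds or unwounded skin. Per the labels and methods, the authors aligned reads to the laboratory mouse genome (mm10) with STAR, version 2.4.1d in the processing notes, and counted reads per RefSeq gene with HTSeq 0.6.0. The labels name both a strand-marking and an unstranded library kit. A supplementary sample list of the paper gives all spiny mouse libraries as not strand-specific, so reads of a gene and its antisense partner cannot be told apart. The deposited files hold raw counts per gene, and column 2 was used. Lines that name no gene (unaligned, low quality, ambiguous) took 61.7% to 75.6% of reads in the 6 libraries and were left out of library sizes and tests. The days in this supplementary sample list differ slightly from the labels, and the labels were used.

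Counts were tested in edgeR 4.0.16 (R 4.3.3) with TMM factors, the filterByExpr filter by arm (minimum count 10), the quasi-likelihood F test in its current form and Benjamini-Hochberg adjustment over all 13413 genes, in 3 models: the 2 arms, a mean per time point, and the arms in epidermis and dermis (12 libraries, 15288 genes). No covariate was used. CPM use TMM-scaled library totals, and a count of 0 allows up to 3 counts. Intervals cover counting error only, since reads carry no molecular identifiers. Scripts were tested on simulated counts with 200 changed genes. Alternatives were other scalings and filters, DESeq2 1.42.0, other edgeR tests, other models and each library left out.

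Genes named by rule were the 12 largest changes per direction with arms apart and a mean of at least 10 CPM, all members of lists of up to 10 genes and otherwise the 6 most abundant, 5 interaction genes per direction, and Twist1, Twist2, Snai1, Snai2, Zeb1, Zeb2, Mmp9, Cdh1, Cdh3, Stat3 and Tgfb1. The groups, members and gene lists were chosen with earlier results of these data known. Krt85, Flg, Kdap, Rnase7 and Pi3 matched no symbol in the files. Some genes that meet the rule are not reported here. Promoters came from RefSeq on GRCm38.p6 and exon lengths from an annotation of GRCm38, matched by symbol for 97.5% of genes.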

Additional observations from a re-analysis of the deposited data

Results flagged for a closer look

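Among the 4 active wound libraries, 1 library lay far from the other 3 for 8 of 217 genes checked. Asprv1 stood apart in the first PWD14 library, at 4892 CPM. Cd207 stood apart in the second PWD14 library, at 155 CPM. Cdh1 stood apart in the first PWD14 library, at 148 CPM. Cux1 stood apart in the first PWD14 library, at 74.5 CPM. Fgf18 stood apart in the second PWD14 library, at 0.592 CPM. Flna stood apart in the first PWD14 library, at 569 CPM. Il18 stood apart in the second PWD14 library, at 434 CPM. Krt10 stood apart in the first PWD14 library, at 32081 CPM. Chance gives such a gap in about 1 in 20 groups.

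The wound contrast differed between epidermis and dermis, by the interaction test of edgeR at an FDR under 0.05, for 51 of the named genes. The log2 difference, epidermis minus dermis, was above 0 for Fabp4 8.56, Krt24 8.17, Krt6a 7.36, Slc1a6 7.25, Stmn2 7.16, Krt17 6.89, Gm5414 6.700, Krt75 5.95, Fabp5 5.700, Calml3 5.69, Klk13 5.27, Car9 5.23, Krt16 4.88, Cnfn 4.800, Plet1 4.79, Serpinb6b 4.76, Serpinb6c 4.67, Serpinb6e 4.500, Sbsn 4.43, Ptgs2 4.31, Serpinb6a 4.13, Asprv1 3.87, Krt5 3.85, Il33 3.52, Tpi1 3.49, Ndufa4l2 3.47, Krt78 3.400, Klk5 3.38, Krt6b 3.25, Dnajb1 2.97, Cd207 2.900, Cers3 2.66, Bnip3 2.56, Aldoa 2.52, Ebp 2.33, Cdkn1a 2.300, Gata3 2.22 and Ldha 1.800. It was below 0 for Tnc -5.96, Lgr5 -4.81, Ptn -4.81, Cdon -4.46, Irs1 -4.43, Thbs3 -4.200, Cntfr -4.19, Fgfr1 -3.83, Ache -3.47, Dkk3 -3.01, Cspg4 -2.95, Postn -2.93 and Gas1 -2.02.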

How the results depend on the processing

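The main counts were 343 higher and 627 lower. They were 177 and 1154 with library size alone, 156 and 308 with no filter, 1749 and 1317 with DESeq2, 1060 and 1323 with the likelihood ratio test, 201 and 365 with the edgeR 3 quasi-likelihood estimate, and 3269 and 3644 for the average of time-point means. Chosen after seeing the data, leaving out both PWD14 libraries gave 1024 and 1242, and both PWD21 libraries 2921 and 2878. PWD28 against PWD0 gave 444 genes, 206 with at least 10 counts in every library, 747 with the likelihood ratio test and 262 with the edgeR 3 estimate. The difference between tissues gave 725 genes, 1699 with DESeq2 and 1411 with the likelihood ratio test. Leaving out each epidermis library in turn gave 0 to 732 higher and 0 to 645 lower genes, 6254 to 7833 at PWD14, 2370 to 6186 at PWD21, 362 to 1022 between PWD28 and PWD0. Between tissues, leaving out each epidermis or, added after seeing the data, each dermis library gave 92 to 1918. The causes of these shifts were not tested. Of 104 called genes named, 104 kept their call with DESeq2, 100 with RLE factors, 94 with library size alone, 72 with the edgeR 3 estimate and 60 with no filter. Without the first PWD14 library 58 of 104 kept it, without PWD28 22, without PWD0 18 and without the second PWD21 library 99 of 103, and without the second PWD14 or the first PWD21 library 0 of 103. In these fits 0 reversed. No paired analysis was possible because the labels give the libraries no replicate numbers. With 1 library each at PWD0 and PWD28, the spread within either day is unknown, and genes of a few counts per library are imprecise.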
